A study of Mus musculus with 12 samples.

Results

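The genes described here are the 46 genes of a list drawn up by position around Ino80 on mouse chromosome 2, out of 45664 rows in the deposited table of counts. Ino80 itself is not among them. Their starts lie from 1.096 Mb below to 1.487 Mb above the start of Ino80 (GENCODE M21 on GRCm38), 21 on the side of lower coordinates and 25 on the side of higher coordinates. In all distances, start means the lowest coordinate of a gene on either strand. Ino80 lies on the - strand, so its start in this sense is where its transcription ends. Only the promoter windows below use the start of transcription. Their rule uses position and no measured value, but they were put forward with results of these data already known. They are not every gene of the interval, since 31 further tested genes start within 2 Mb of Ino80.

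Whole hearts of mouse embryos were sequenced as bulk RNA in 12 libraries, 1 per embryo, with 3 embryos in each of 4 groups. The KO groups carry an endothelial disruption of Ino80 made with Tie2, at the embryonic days E13.5 and E14.5, and the WT groups are wild type at the same stages. Tie2 (Tek) is active in endothelial cells and, as is generally known of Tie2-Cre lines, in much of the blood lineage. Cardiomyocytes, which make up much of a heart, are not among these cells. All 6 embryos at E13.5 came from litter 1. At E14.5, litter 2 gave 2 KO and 2 WT embryos and litter 3 gave 1 of each, so that stage cannot be told apart from litter. Both genotypes came from every litter. The mouse strain, the deleted part of Ino80 and the genotype of the WT embryos at the Tie2 and Ino80 alleles beyond the name WT are not stated in the sources used here.

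INO80 is the ATPase of a chromatin remodelling complex that slides nucleosomes and exchanges histone variants, and the complex is known to be brought to some genes by the factor YY1. A gene disrupted in mice by recombination is inherited together with the chromosome segment around it, and neighbouring genes can differ in sequence between the segment that carries the altered allele and the segment that does not. For these embryos the sequence of the segment is not stated in the sources used here. A difference of a neighbour that follows from the disruption and a difference that is carried by the segment itself cannot be told apart in this design.

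The libraries held 46556032 to 182545647 counts. Levels are given in CPM, the count of a gene scaled to library size with TMM factors by edgeR, and the error of a group mean is the SD of 3 embryos. A gene was called where edgeR's quasi-likelihood F-test, two-sided and fitted to all 12 libraries, gave a Benjamini-Hochberg adjusted p below 0.05 over the 20691 genes tested. Error of a log2 fold change is its SE. Nothing in the labels beyond the litter says how the embryos of a group were sampled, so p-values measure the spread between these embryos. The 10 cardiomyocyte markers summed to 20730 to 25870 CPM in KO hearts at E13.5, against 22970 to 24100 CPM in WT hearts. At E14.5 the KO hearts had 21110, 21980 and 27490 CPM of these markers and the WT hearts 24920 to 27780 CPM. KO replicate 5 of E13.5 and KO replicate 2 of E14.5 stood apart, with summed CPM of 16 macrophage and leukocyte markers of 45.5 and 46.5. At E13.5 the other KO hearts had 93.8 and 97.6 CPM and the WT hearts 151 to 166 CPM, so that all KO hearts of that stage lay below all WT hearts. At E14.5 the other KO hearts had 170 and 142 CPM and the WT hearts 128 to 146 CPM. KO replicate 1 of E14.5 stood apart in another way, with 41770 CPM of 10 erythroid markers, against 3910 and 9332 CPM in the other KO hearts and 11440 to 18370 CPM in the WT hearts of that stage. Without that embryo the same 10 neighbours were called over both stages. Y-linked transcripts were present in 2 of 3 KO hearts at E13.5 and in 1 of 3 hearts of each other group.

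Ino80, the gene disrupted, had 29.6, 29.6 and 29.6 CPM in KO hearts at E13.5, against 36.6, 33.8 and 30.7 CPM in WT hearts. At E14.5 it had 27.0, 29.5 and 31.9 CPM in KO hearts, against 33.9, 31.4 and 30.8 CPM in WT hearts. All KO embryos lay below all WT embryos at E13.5, while the groups overlapped at E14.5. The log2 fold change averaged over the stages was -0.15 ± 0.06 and did not pass the test (edgeR adjusted p = 0.220). Counts over a whole gene do not check the deletion of a part of it.

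Averaged over the stages, 10 of the 45 neighbours tested differed between KO and WT hearts, which is 22.2% of them. The same test called 1.42% of all genes. Of the 10, 7 were lower in KO hearts (0.585% of all genes were called lower) and 3 were higher (0.831% of all genes). The 7 that fell were Gchfr, Itpka, Ltk, Capn3, Pla2g4e, Stard9 and Ubr1, and the 3 that rose were Disp2, Chp1 and Pak6. In a whole heart, fewer cells that express a gene and less RNA of it per cell cannot be told apart. The remaining 35 had log2 fold changes between -0.39 and 0.49, and 31 of them lay within 0.35 of 0. At an unadjusted p below 0.05, 23 of 45 neighbours differed (51.1%, against 14.7% of all genes). The 46th, Rhov, was too low to be tested.

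**Figure D1:**
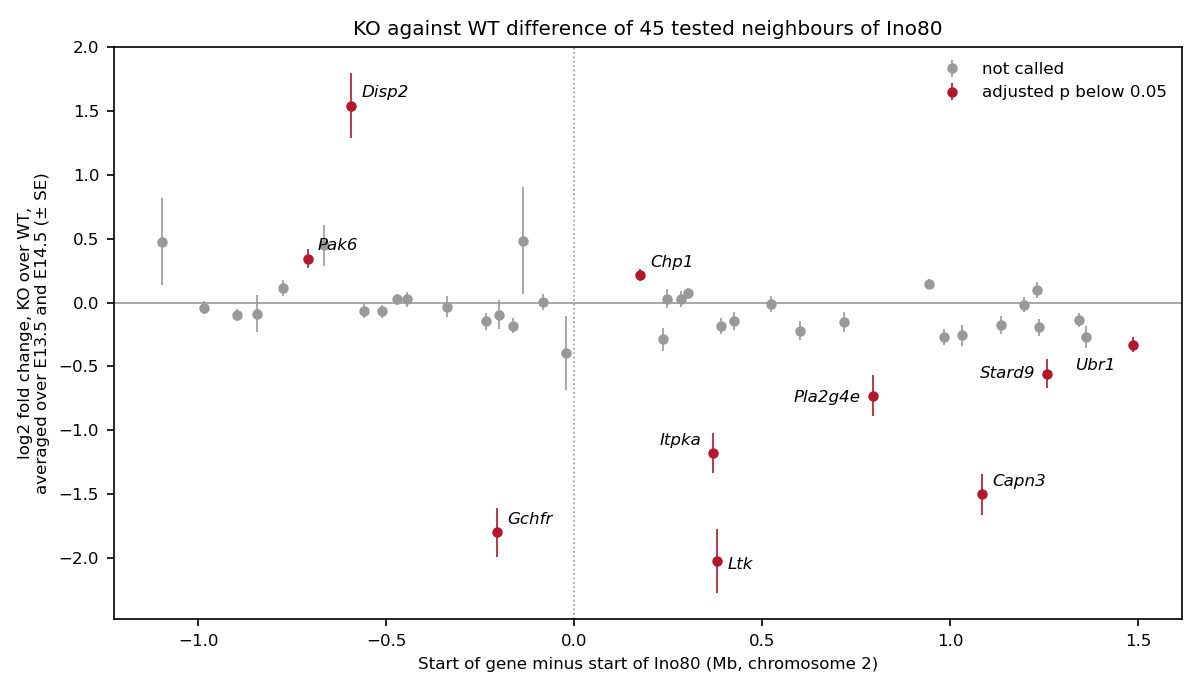
Log2 fold change of KO over WT hearts, averaged over E13.5 and E14.5 with its SE, of the 45 tested neighbours against the start of each gene minus the start of Ino80 in Mb. Called genes are red, and they run from Pak6 on the side of lower coordinates to Ubr1 at 1.487 Mb, with Gchfr, Ltk, Capn3, Itpka and Disp2 beyond 1 on the log2 scale.

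The genes with the largest falls have short stretches upstream of their starts that can be read beside the values. They are the 250 bases before the RefSeq start of Gchfr (chr2:119167538-119167787, + strand), Itpka (chr2:119742087-119742336, + strand), Ltk (chr2:119758526-119758775, - strand) and of the 2 starts listed for Capn3 (chr2:120463343-120463592 and chr2:120476659-120476908, + strand), all on GRCm38.p6. They are shown because these genes fell together and because each of them can be compared for elements that a basal promoter may hold. Capitals mark, on either strand, the TATA box (TATAAA), the CCAAT box by its own letters, the GC box (GGGCGG) and the core that YY1 is known to bind (CCATNTT).
Gchfr: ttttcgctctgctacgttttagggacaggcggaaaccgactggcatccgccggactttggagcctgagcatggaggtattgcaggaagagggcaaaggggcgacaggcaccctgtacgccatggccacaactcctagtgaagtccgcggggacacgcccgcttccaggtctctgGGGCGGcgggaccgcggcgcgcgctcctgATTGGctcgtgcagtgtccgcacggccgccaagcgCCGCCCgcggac
Itpka: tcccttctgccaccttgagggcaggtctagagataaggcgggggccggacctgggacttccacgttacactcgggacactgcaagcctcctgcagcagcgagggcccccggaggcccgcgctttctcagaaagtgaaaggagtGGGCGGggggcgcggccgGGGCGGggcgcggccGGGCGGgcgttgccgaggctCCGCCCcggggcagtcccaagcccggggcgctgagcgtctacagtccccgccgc
Ltk: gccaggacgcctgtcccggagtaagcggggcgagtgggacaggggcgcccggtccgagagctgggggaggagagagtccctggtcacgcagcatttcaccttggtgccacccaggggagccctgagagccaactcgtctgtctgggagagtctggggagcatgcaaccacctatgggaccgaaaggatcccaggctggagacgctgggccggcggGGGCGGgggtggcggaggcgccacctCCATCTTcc
Capn3, start 1: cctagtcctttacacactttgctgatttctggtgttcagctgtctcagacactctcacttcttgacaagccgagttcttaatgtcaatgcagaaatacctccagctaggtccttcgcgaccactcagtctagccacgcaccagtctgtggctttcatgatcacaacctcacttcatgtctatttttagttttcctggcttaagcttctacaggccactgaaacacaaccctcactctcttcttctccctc
Capn3, start 2: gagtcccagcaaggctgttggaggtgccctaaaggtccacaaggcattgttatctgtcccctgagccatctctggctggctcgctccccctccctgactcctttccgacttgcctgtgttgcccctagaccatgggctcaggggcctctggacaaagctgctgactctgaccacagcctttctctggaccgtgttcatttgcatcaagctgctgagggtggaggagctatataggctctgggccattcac

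The 4 genes shared no promoter type by these letters. Gchfr had 27 CpG dinucleotides in its window with 2 GC boxes (GGGCGG) and 1 CCAAT box, and Itpka had 26 CpG with 4 GC boxes. Ltk had 16 CpG with 1 GC box and 1 CCATNTT match, at the very end of its window. Neither window of Capn3, with 4 and 3 CpG, held a match to any of the motifs. Among all 32851 promoters of the table, 12.4% held TATAAA, 33.8% CCAAT, 32.7% GGGCGG and 12.4% CCATNTT, and the median was 6 CpG. The 53 promoters of 44 neighbours found in the table held CCAAT in 18, GGGCGG in 31, CCATNTT in 3 and TATAAA in 0, with a median of 16 CpG. Disp2 had no entry. A match is a match of letters in a window, not a site in use.

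Among the neighbours with a role in mitochondria or metabolism, 1 of 7 was called. Gchfr encodes the feedback regulator of GTP cyclohydrolase I, through which tetrahydrobiopterin restrains its own synthesis. It had 0.838, 0.928 and 0.940 CPM in KO hearts at E13.5, against 3.12, 3.78 and 2.31 CPM in WT hearts. At E14.5 it had 1.14, 1.33 and 1.12 CPM in KO hearts, against 2.52, 5.36 and 4.89 CPM in WT hearts. At each stage every KO heart lay below every WT heart, and the lowest WT heart was replicate 2 of E13.5 with 2.31 CPM. The averaged log2 fold change of Gchfr was -1.80 ± 0.19 (edgeR adjusted p = 0.000683), so that its level in KO hearts was 28.7% of that in WT hearts. Gchfr was also called within each stage, with -1.77 ± 0.27 at E13.5 (adjusted p = 0.0291) and -1.83 ± 0.27 at E14.5 (adjusted p = 0.0171).

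Most enzymes around Gchfr did not pass the test. Of 11 tested genes of tetrahydrobiopterin synthesis, recycling and use, 0 rose and 1 fell, with a median log2 fold change of -0.06 beside a median of -0.00216 over all genes. Gch1, the cyclohydrolase that Gchfr regulates, had an averaged log2 fold change of -0.17 ± 0.10 (edgeR adjusted p = 0.445). The gene that fell was Nos2, the inducible nitric oxide synthase, which needs the cofactor and averaged 1.16 CPM in KO and 2.49 CPM in WT hearts at E13.5, and 1.95 CPM in KO and 4.16 CPM in WT hearts at E14.5. Its log2 fold change was -1.10 ± 0.18 (edgeR adjusted p = 0.0109).

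The other 6 genes of that role did not pass the test. They include Ivd, an enzyme of leucine breakdown, Chst14, which sulfates dermatan, Ganc, a glucosidase, and Rmdn3, a tether of mitochondria, and the averaged log2 fold changes of these 4 ran from -0.26 in Ganc to 0.02 in Chst14. Chac1, which degrades glutathione and starts 0.0218 Mb from Ino80, was the nearest neighbour by lowest coordinate. It had 0.172, 0.0987 and 0.236 CPM in KO hearts at E13.5, against 0.410, 0.440 and 0.465 CPM in WT hearts. At E14.5 it had 0.482, 0.357 and 0.546 CPM in KO hearts, against 0.534, 0.224 and 0.227 CPM in WT hearts. The KO hearts lay below the WT hearts at E13.5, and the groups overlapped at E14.5. These levels rest on 5 to 76 counts a library. The change of its KO effect between the stages had the smallest unadjusted p among the neighbours, 0.00866, with an edgeR adjusted p of 0.997. Of 9 tested genes of leucine breakdown other than Ivd, 0 rose and 0 fell (1 lower at an unadjusted p below 0.05, and 0 by DESeq2).

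Among the kinases, 3 of 6 neighbours were called. Itpka, which phosphorylates inositol trisphosphate, and Ltk, a receptor tyrosine kinase related to Alk, lie tail to tail with 57 bases between their annotated ends, and both fell. Itpka had 2.26, 2.39 and 2.44 CPM in KO hearts at E13.5, against 5.64, 5.75 and 5.77 CPM in WT hearts. At E14.5 Itpka had 2.16, 3.17 and 3.39 CPM in KO hearts, against 4.12, 6.18 and 8.23 CPM in WT hearts. The groups of Itpka did not overlap at either stage, and WT hearts varied more at E14.5. Its averaged log2 fold change was -1.18 ± 0.16 (edgeR adjusted p = 0.00346), or 44.1% of the WT level. Within stages it was -1.27 ± 0.22 (adjusted p = 0.0560) at E13.5 and -1.09 ± 0.22 (adjusted p = 0.0703) at E14.5. With litter as a block, since the labels give shared litters, Itpka was called at both stages (adjusted p = 0.0134 and 0.0264).

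Ltk had 0.263, 0.276 and 0.176 CPM in KO hearts at E13.5, against 1.36, 1.33 and 0.737 CPM in WT hearts. At E14.5 Ltk had 0.171, 0.160 and 0.251 CPM in KO hearts, against 0.491, 0.784 and 0.682 CPM in WT hearts. The KO hearts lay below the WT hearts at both stages, from 11 to 32 counts a library in KO and 23 to 251 in WT. The averaged log2 fold change of Ltk was -2.02 ± 0.25 (edgeR adjusted p = 0.00211), the lowest of the 45 tested neighbours, which puts KO at 24.6% of WT. Ltk was called at E13.5 (-2.30 ± 0.35, adjusted p = 0.0272), and at E14.5 its value was -1.75 ± 0.36 (adjusted p = 0.0733).

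Pak6, a p21-activated kinase, was higher in KO hearts. It had 22.4, 22.4 and 21.5 CPM in KO hearts at E13.5, against 18.9, 18.1 and 18.8 CPM in WT hearts. Its levels at E14.5 were 26.6, 28.3 and 33.99 CPM in KO hearts, against 21.3, 19.2 and 24.9 CPM in WT hearts. No KO heart overlapped with a WT heart of its stage. The averaged log2 fold change of Pak6 was 0.34 ± 0.07 (edgeR adjusted p = 0.0354), and with litter as a block Pak6 was also called at E14.5 alone (0.44, adjusted p = 0.0139). The call ended in 8 of 12 fits that left out 1 library: those without any of the 6 at E13.5 and those without E14.5 WT replicate 8 or 7 (adjusted p up to 0.0996).

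Eif2ak4, Tyro3 and Ttbk2 did not pass the test, with averaged log2 fold changes of -0.04, -0.14 and -0.27. Eif2ak4 is the GCN2 kinase that senses missing amino acids and Tyro3 is a receptor for Gas6 and protein S. Of 14 tested genes of the integrated stress response other than Eif2ak4, 2 rose and 0 fell, with a median log2 fold change of 0.14. Trib3, a pseudokinase induced by Atf4, averaged 3.22 CPM in KO and 2.03 CPM in WT hearts at E13.5 and 4.10 CPM in KO and 2.03 CPM in WT hearts at E14.5 (0.84 ± 0.15, edgeR adjusted p = 0.0161). Ppp1r15a, which directs the phosphatase of eIF2, had an averaged log2 fold change of 0.43 ± 0.10 (adjusted p = 0.0436). Of the 4 genes of the receptors Axl and Mertk and their ligands, 1 rose and 0 fell. This was Pros1, which encodes protein S, with 26.9 CPM in KO and 20.8 CPM in WT hearts at E13.5 and 32.7 CPM in KO and 19.99 CPM in WT hearts at E14.5 (0.54 ± 0.05, adjusted p = 0.000474).

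Of the 3 neighbours that encode proteases, an inhibitor of proteases or a ubiquitin ligase, 2 were called, both lower. Capn3 is the calpain of striated muscle. It had 2.71, 2.29 and 2.61 CPM in KO hearts at E13.5, against 7.22, 7.06 and 5.29 CPM in WT hearts. At E14.5 it had 2.16, 3.68 and 2.14 CPM in KO hearts, against 6.17, 8.91 and 9.89 CPM in WT hearts. All KO hearts of Capn3 lay below all WT hearts, with 3.68 CPM in E14.5 KO replicate 4 as the highest. Capn3 had an averaged log2 fold change of -1.50 ± 0.16 (edgeR adjusted p = 0.000683), which is 35.3% of the WT level, and was called at E13.5 (-1.36 ± 0.23, adjusted p = 0.0458) and at E14.5 (-1.64 ± 0.23, adjusted p = 0.0126). The annotated exons of Capn3 share 386 bases with those of Ganc on the same strand, and the counting rule for such bases is not stated in the sources used here. Ganc itself had -0.26 ± 0.08 (adjusted p = 0.165).

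The other calpain genes did not pass the test. Of 9 tested genes of the calpains and their inhibitor calpastatin, 0 rose and 0 fell, with a median log2 fold change of 0.01. At an unadjusted p below 0.05, 3 of them were higher, and DESeq2 called 0. The markers of skeletal muscle, a tissue where Capn3 is abundant, summed to 8.81 to 13.54 CPM in the KO hearts and to 9.47 to 13.6 CPM in the WT hearts. Of its 6 tested markers, 0 rose and 0 fell (1 higher at an unadjusted p below 0.05, and 0 by DESeq2).

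Ubr1, a ligase of the N-degron pathway and the member farthest from Ino80, had 36.0, 39.7 and 35.0 CPM in KO hearts at E13.5, against 49.3, 48.3 and 43.4 CPM in WT hearts. At E14.5 Ubr1 had 35.8, 39.9 and 41.8 CPM in KO hearts, against 47.1, 50.9 and 47.6 CPM in WT hearts. The groups did not overlap at either stage. Its averaged log2 fold change was -0.33 ± 0.06 (edgeR adjusted p = 0.0116), which puts KO at 79.6% of WT. Spint1, an inhibitor of serine proteases at the surface of epithelia, had 0.121, 0.0592 and 0.170 CPM in KO hearts at E13.5, against 0.238, 0.124 and 0.160 CPM in WT hearts. At E14.5 Spint1 had 0.124, 0.173 and 0.177 CPM in KO hearts, against 0.0427, 0.112 and 0.0162 CPM in WT hearts. It rests on 1 to 44 counts a library and did not pass the test (0.49 ± 0.42, adjusted p = 0.629).

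Some epithelial markers were higher in KO hearts. Of 5 tested epithelial markers 2 rose and 0 fell. The 8 listed markers summed to 20.2 to 29.6 CPM in KO and 17.1 to 19.1 CPM in WT hearts at E13.5. At E14.5 they summed to 15.5 to 20.7 CPM in KO and 8.25 to 13.8 CPM in WT hearts. These sums did not overlap between KO and WT hearts at either stage. Cldn7, a tight junction protein, averaged 0.785 CPM in KO and 0.372 CPM in WT hearts at E13.5 and 0.857 CPM in KO and 0.310 CPM in WT hearts at E14.5 (1.27 ± 0.21, edgeR adjusted p = 0.0104). Krt8, a keratin, was higher too, with a log2 fold change of 0.72 ± 0.15 (adjusted p = 0.0356). Of the tested markers that did not pass, Krt18 had 0.56 (adjusted p = 0.105), Epcam 0.10 (adjusted p = 0.955) and Grhl2 -0.28 (adjusted p = 0.655). Cdh1, Cldn6 and Esrp1 averaged under 0.1 CPM and were not tested. The part of these cells in the values of the neighbours was not tested.

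Among the 10 neighbours of the cell surface, of signalling or of other roles, 9 were tested and 3 were called. Disp2, a relative of the transporter that releases Hedgehog ligands, had the largest rise. It had 0.929, 0.888 and 1.04 CPM in KO hearts at E13.5, against 0.302, 0.383 and 0.449 CPM in WT hearts. Its levels at E14.5 were 0.855, 1.04 and 0.782 CPM in KO hearts, against 0.470, 0.187 and 0.162 CPM in WT hearts. Every KO heart of Disp2 lay above every WT heart, with 45 to 190 counts a library in KO and 10 to 56 in WT. The averaged log2 fold change of Disp2 was 1.54 ± 0.25 (edgeR adjusted p = 0.0106), or 291% of the WT level. Within a stage it did not pass the test, with 1.36 ± 0.35 at E13.5 (adjusted p = 0.208) and 1.73 ± 0.37 at E14.5 (adjusted p = 0.0872). Without KO replicate 5 of E13.5 and KO replicate 2 of E14.5 together the averaged call of Disp2 ended (adjusted p = 0.0563).

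Pla2g4e, an enzyme of phospholipid acyl chains, had 2.33, 1.84 and 1.89 CPM in KO hearts at E13.5, against 2.92, 3.63 and 2.88 CPM in WT hearts. At E14.5 Pla2g4e had 2.67, 2.38 and 3.05 CPM in KO hearts, against 3.12, 5.27 and 5.90 CPM in WT hearts. The groups came close without overlap at E14.5, where the highest KO heart had 3.05 CPM and the lowest WT heart 3.12 CPM. The averaged log2 fold change was -0.73 ± 0.16 (edgeR adjusted p = 0.0394). It stayed below 0.05 only in the fits without WT replicate 8 of E14.5 or KO replicate 1 of E14.5, and the adjusted p of the other 10 fits that left out 1 library reached 0.109. Without litter 3 it was 0.0742.

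Stard9, a long kinesin-like protein with a lipid-binding domain, had 12.8, 13.8 and 11.9 CPM in KO hearts at E13.5, against 22.5, 20.8 and 16.2 CPM in WT hearts. At E14.5 Stard9 had 16.5, 15.4 and 23.1 CPM in KO hearts, against 23.2, 29.7 and 23.8 CPM in WT hearts. E14.5 KO replicate 1 reached 23.13 CPM, just under the lowest WT heart at 23.15 CPM. The averaged log2 fold change of Stard9 was -0.56 ± 0.11 (edgeR adjusted p = 0.0340), and it stayed below 0.05 in 4 of 12 fits that left out 1 library (E13.5 WT replicate 2, and E14.5 WT replicate 8, KO replicate 4 or KO replicate 1). The adjusted p of the other fits reached 0.0940. Cdan1 on the opposite strand shares 2207 bases with the exons of Stard9, and without a stated strand of counting their reads cannot be told apart there.

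Rhov failed the filter on low counts, with 4, 0 and 4 counts in KO hearts and 28, 4 and 1 in WT hearts at E13.5. At E14.5 it had 4, 4 and 1 counts in KO hearts and 0, 2 and 0 in WT hearts. The rest of this role, Gpr176, Bmf, Plcb2, Mapkbp1, Tmem87a and Lrrc57, did not pass the test, and their averaged log2 fold changes ran from -0.27 in Tmem87a to 0.47 in Gpr176. Tmem87a, a protein of the Golgi, came nearest to the threshold (-0.27 ± 0.06, edgeR adjusted p = 0.0514), with KO hearts below WT hearts at both stages. DESeq2 called Tmem87a, with an adjusted p of 0.00453.

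**Figure D2:**
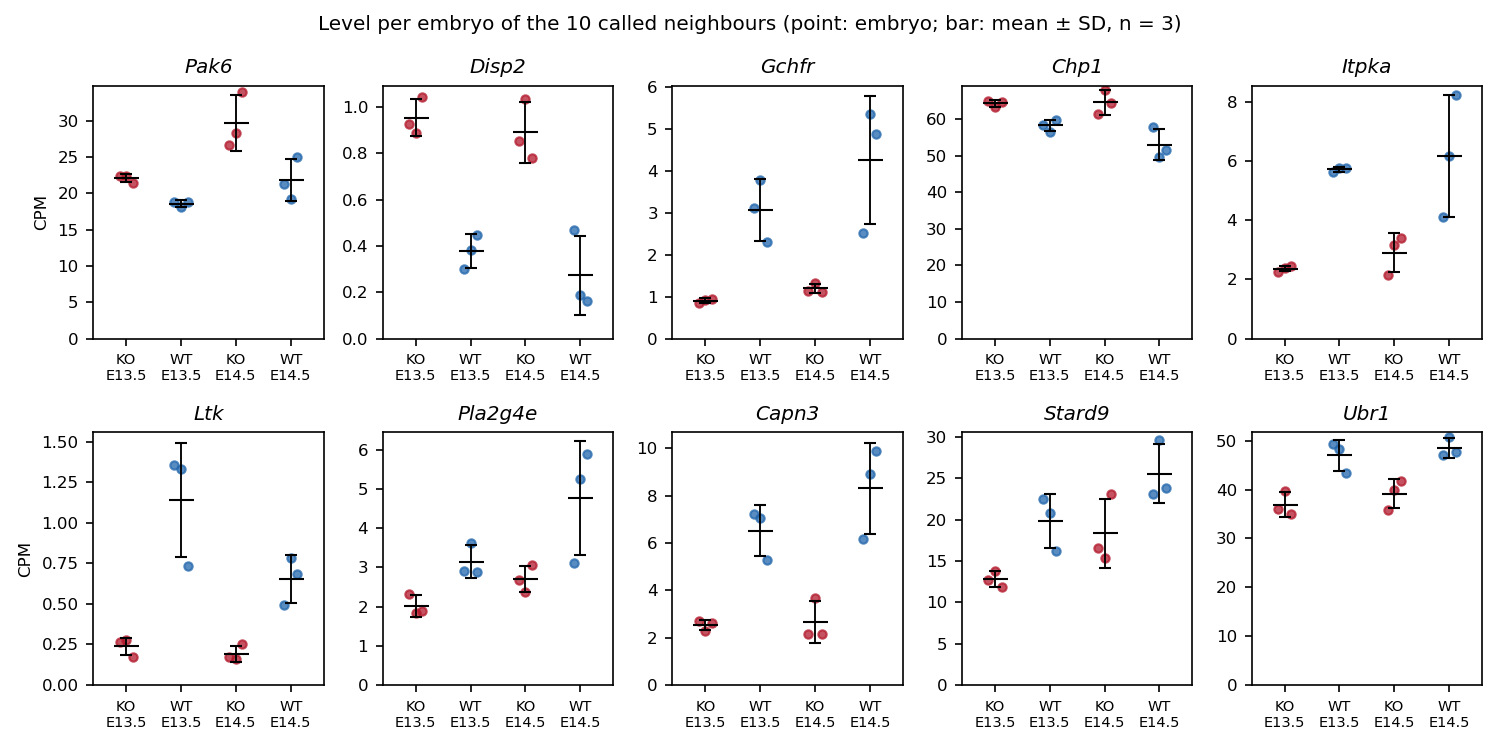
Level in CPM of each of the 10 called neighbours in every embryo, with KO left of WT at E13.5 and then at E14.5; points are embryos and bars give the mean and SD of 3. In all 10 panels no KO heart overlaps with a WT heart of its stage, and the gap is widest in relation to the level in Gchfr, Ltk, Capn3, Itpka and Disp2.

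Of the 6 neighbours that serve endosomes, vacuoles or membrane fusion, 1 was called. Chp1, a calcium-binding partner of sodium-proton exchangers, had 64.9, 63.2 and 64.6 CPM in KO hearts at E13.5, against 58.5, 56.5 and 59.7 CPM in WT hearts. At E14.5 Chp1 had 61.3, 68.0 and 64.3 CPM in KO hearts, against 57.9, 49.7 and 51.5 CPM in WT hearts. The groups did not overlap, but the difference was small, with an averaged log2 fold change of 0.21 ± 0.05 (edgeR adjusted p = 0.0413). The call of Chp1 was kept in 3 of 12 fits that left out 1 library, those without E14.5 WT replicate 8, KO replicate 2 or KO replicate 1, and the adjusted p of the others reached 0.130. It also ended with a covariate for Y-linked expression (0.0586) and without litter 3 (0.0832). The level of Chp1 in KO hearts was 116% of that in WT hearts.

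Vps18 is a subunit of the tethering complexes HOPS and CORVET, Vps39 is a subunit of HOPS, and Zfyve19 holds a lipid-binding FYVE finger. Vps18, at 0.0843 Mb from Ino80, had an averaged log2 fold change of 0.01 ± 0.06 (edgeR adjusted p = 0.978), and Zfyve19, at 0.164 Mb, had -0.18 ± 0.06 (adjusted p = 0.165). Zfyve19 was lower in every KO heart than in the WT hearts of its stage, with 12.5 to 14.4 CPM in KO and 14.8 to 17.1 CPM in WT over both stages. Vps39 was higher in every KO heart than in the WT hearts of its stage, with 38.9 to 39.6 CPM in KO and 35.4 to 38.0 CPM in WT at E13.5 and 38.0 to 40.4 CPM in KO and 33.3 to 35.5 CPM in WT at E14.5 (0.14 ± 0.04, adjusted p = 0.115). DESeq2 called Vps39 in the averaged comparison, with an adjusted p of 0.0231. Ehd4, which remodels endosomal membranes, and Snap23, a SNARE protein, had -0.15 and -0.02. The 7 other tested genes of a list drawn up for HOPS and CORVET all had log2 fold changes below 0, with a median of -0.04. Of these 0 rose and 0 fell (2 lower at an unadjusted p below 0.05, and 0 by DESeq2).

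Of the 5 neighbours of the spindle and of chromosome segregation, 0 were called (2 lower at an unadjusted p below 0.05, and 0 by DESeq2). Oip5, which helps to load the centromeric histone and starts 0.237 Mb from Ino80, had 10.8, 9.85 and 10.5 CPM in KO hearts at E13.5, against 13.3, 14.8 and 12.1 CPM in WT hearts. At E14.5 Oip5 had 13.3, 10.9 and 8.87 CPM in KO hearts, against 13.46, 12.62 and 12.05 CPM in WT hearts. The KO hearts lay below the WT hearts at E13.5 and overlapped with them at E14.5 (averaged -0.29 ± 0.09, edgeR adjusted p = 0.145). Nusap1, which binds spindle microtubules and shares 172 bases of exon with Oip5 on the opposite strand, had 0.03 ± 0.07 (adjusted p = 0.874). Bub1b, of the spindle checkpoint, Knstrn, of the kinetochore, and Haus2, of the augmin complex, had 0.12, -0.07 and -0.19. In a list of 25 other genes of mitosis 0 rose and 0 fell, by edgeR at an unadjusted p below 0.05 and by DESeq2 too, with a median of 0.06.

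The 9 neighbours that act in transcription, chromatin or RNA had averaged log2 fold changes between -0.19 in Rpap1 and 0.07 in Rtf1, and 0 were called (3 lower at an unadjusted p below 0.05, and 0 by DESeq2). Rtf1, which works with the PAF1 complex on elongating polymerase and starts 0.302 Mb from Ino80, had 65.1, 60.0 and 64.1 CPM in KO hearts at E13.5, against 59.8, 62.3 and 60.3 CPM in WT hearts. At E14.5 Rtf1 had 61.0, 61.8 and 60.5 CPM in KO hearts, against 60.8, 53.4 and 58.1 CPM in WT hearts. At E13.5 the groups overlapped, and at E14.5 they overlapped too, with WT replicate 8 at 60.8 CPM among the KO values. Of 5 tested subunits of the PAF1 complex 0 rose and 0 fell (0 at an unadjusted p below 0.05 and 0 by DESeq2). Mga, Zfp106, Bahd1, Cdan1, Srp14, Rpusd2 and Dnajc17 make up the rest of the role.

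The levels of the neighbours covered a wide range. Per kb of merged exon, the mean over all hearts ran from 0.0214 CPM in Rhov to 56.3 CPM in Ehd4. The highest were Ehd4, Srp14, Bub1b and Zfp106, and Srp14 at 51.1 CPM per kb lay within the spread of Ehd4 over the hearts. Some pairs of called genes changed their order with genotype, among them Capn3 with Stard9 and Ltk with Disp2. In KO hearts at E13.5 Ltk had 0.0663 CPM per kb and Disp2 0.0998 CPM per kb, while in WT hearts Ltk had 0.317 CPM per kb and Disp2 0.0396 CPM per kb. At E14.5 Ltk had 0.0540 and Disp2 0.0932 CPM per kb in KO hearts, and Ltk had 0.182 and Disp2 0.0286 CPM per kb in WT hearts.

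**Figure D3:**
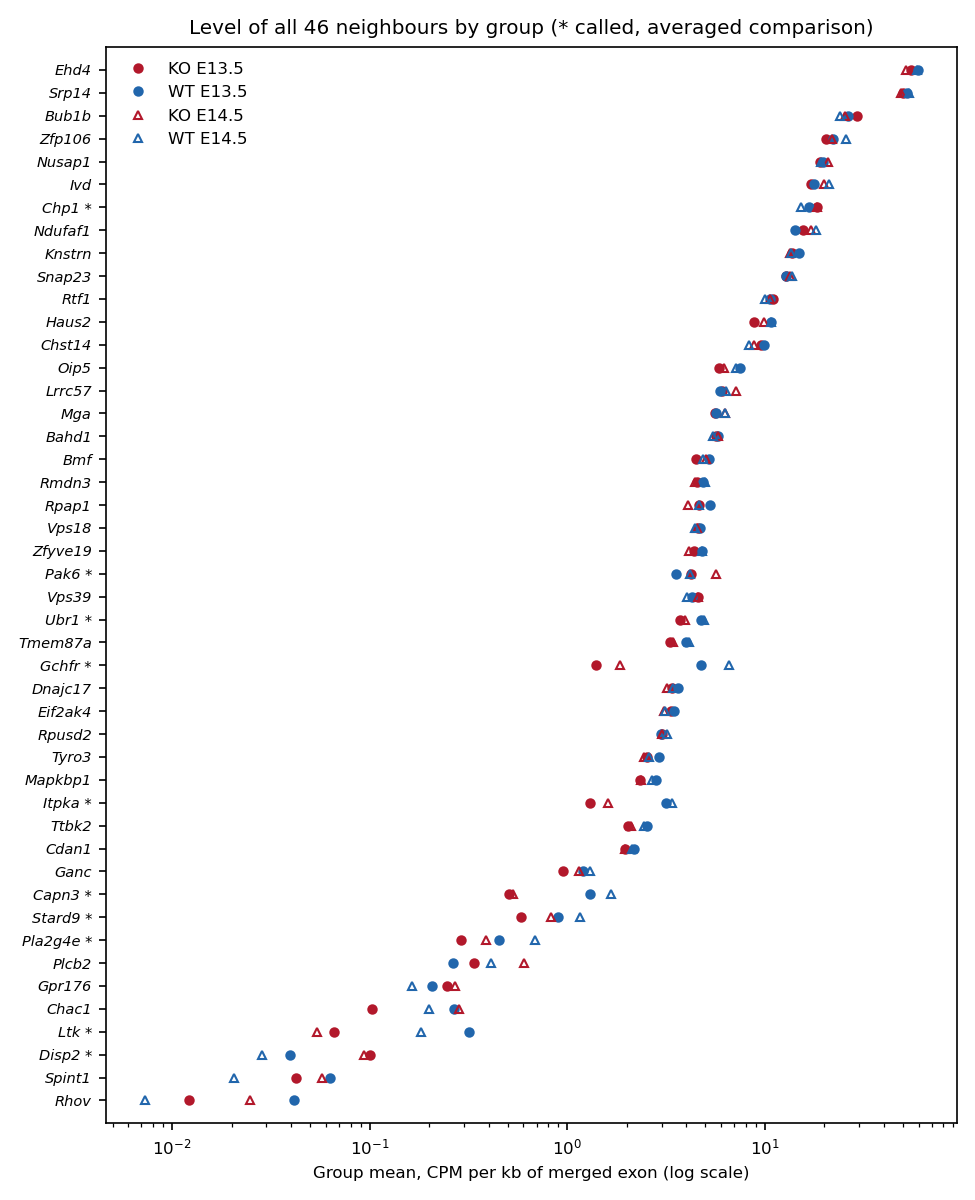
Mean level of the 46 neighbours in each of the 4 groups, in CPM per kb of merged exon on a log axis, ordered by the mean over all hearts from Ehd4 at the top to Rhov; circles are E13.5, triangles E14.5, red KO and blue WT. For most genes the 4 symbols lie close together, and those of Gchfr, Itpka, Capn3, Ltk and Disp2 fall into a KO pair and a WT pair.

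Separation of the embryos was more common among the neighbours than among all genes. At both stages and in the same direction, the 3 KO hearts did not overlap with the 3 WT hearts in 13 of 45 neighbours (28.9%), against 3.25% of all genes. These were the 10 called genes with Tmem87a and Zfyve19, lower in KO, and Vps39, higher in KO. Such counts rest on the same values as the test, so they are no further check of the calls. Of the 13, 9 were lower in KO (20%, against 1.5% of all genes) and 4 higher (8.89%, against 1.75%). At E13.5 alone 23 did not overlap (51.1%, against 19.6% of all genes), 19 of them lower in KO (42.2%, against 11.2% of all genes). At E14.5 alone 16 did not overlap (35.6%, against 12.7% of all genes), 10 of them lower in KO (22.2%, against 5.86% of all genes). A log2 fold change of at least 1 either way was found in 5 of 45 (11.1%, against 1.7% of all genes), and a value below 0 in 30 of 45 (66.7%, against 50.7%).

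Each litter gave the same sign for the called genes. The KO minus WT difference in mean log2(CPM + 0.01) of Gchfr was -1.73 in litter 1, -1.57 in litter 2 and -2.11 in litter 3. That of Ltk was -2.19, -1.85 and -1.41, and that of Itpka was -1.27, -0.95 and -1.28. Capn3 had -1.35, -1.39 and -2.20, and Disp2 had 1.33, 1.63 and 2.20. All 10 called neighbours kept their sign in all 3 litters, though Stard9 had -0.04 in litter 3 beside -0.62 and -0.72 in the others. Their KO and WT hearts did not overlap at either stage, which fixes the sign in every litter. It is therefore no further check of the calls. Over the 45 tested neighbours, 27 had the same sign in all 3 litters (60.0%, against 33.1% of all genes). Litter 3 holds 1 embryo of each genotype, so its difference has no replicate check.

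**Figure D4:**
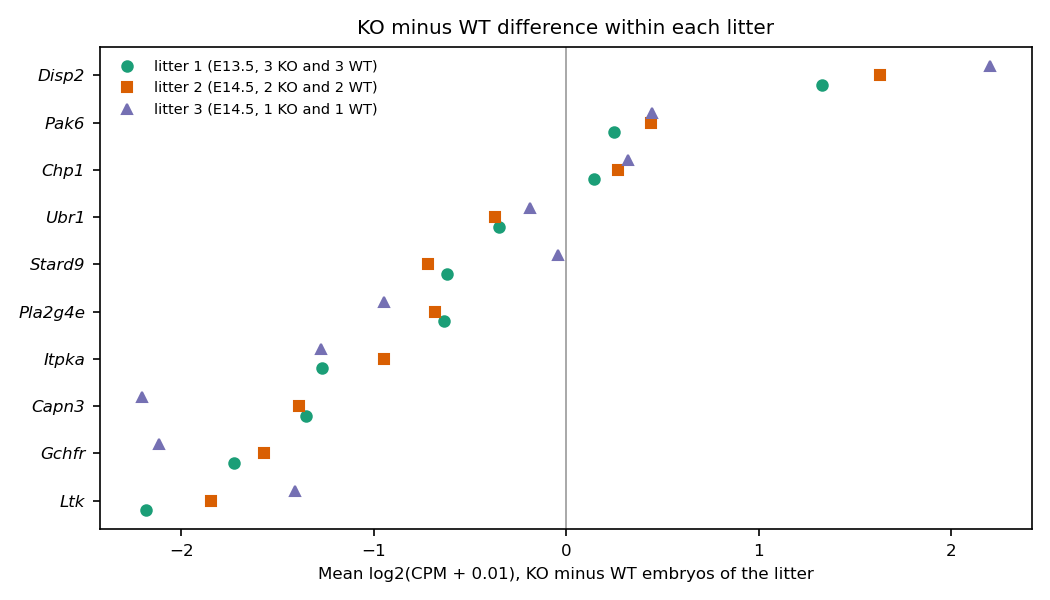
KO minus WT difference in mean log2(CPM + 0.01) of the 10 called neighbours within litter 1 (E13.5, 3 KO and 3 WT hearts), litter 2 (E14.5, 2 and 2) and litter 3 (E14.5, 1 and 1). Disp2, Pak6 and Chp1 lie right of 0 and the other 7 left of it in every litter, with Stard9 in litter 3 near 0 at -0.04. These signs follow from the lack of overlap at each stage.

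Within a single stage, fewer neighbours passed the test. At E13.5 3 of 45 were called, Capn3, Gchfr and Ltk, all lower (6.67%, against 0.106% of all genes called and 0.087% called lower). The summed level of the macrophage and leukocyte markers was lower in all 3 KO hearts of this stage than in its WT hearts, and their part in these calls was not tested. At E14.5 2 of 45 were called, Capn3 and Gchfr, both lower (4.44%, against 0.222% of all genes called and 0.0773% called lower). With litter as a block 4 were called at E14.5, Itpka and Pak6 being added. A covariate for Y-linked expression ended the 3 calls at E13.5 (adjusted p = 0.0565 in Capn3, 0.0645 in Gchfr and 0.0623 in Ltk). Over all genes it left 9 calls at E13.5, against 22 in the main fit. At E14.5 the calls of Capn3 and Gchfr ended in a fit to the 6 hearts of that stage alone (adjusted p = 0.147 and 0.132) and without litter 3 (0.0718 and 0.0939). Over all genes these fits called 2 and 61, against 46 in the main fit. Single libraries mattered too. At E13.5, 0 neighbours were called in the fits without WT replicate 1, WT replicate 4, KO replicate 3, KO replicate 5 or KO replicate 7. Calls over all genes fell in these fits too, from 22 to 4, 2, 4, 6 and 5. At E14.5, 0 were called without KO replicate 2 or WT replicate 7.2, 1 without WT replicate 7 and 5 without WT replicate 8. Over all genes these 4 fits called 13, 10, 23 and 59, against 46 in the main fit.

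A change of the KO effect between the stages was not found for any neighbour by edgeR's test. The interaction called 0 of 45 neighbours and 0 of 20691 genes (0% of all), with 2 neighbours, Chac1 and Spint1, at an unadjusted p below 0.05, which is 4.44% of them against 3.61% of all genes. DESeq2 called 0 neighbours and 2 genes in all. The interaction of Gchfr was -0.06 ± 0.38 on the log2 scale and that of Capn3 -0.28 ± 0.32, so that differences between stages of these sizes were within the error.

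Few neighbours were called between the stages. From the comparison of E14.5 with E13.5 in KO hearts, 1 of 45 was called (2.22%, against 3.74% of all genes), and in WT hearts 1 of 45 (2.22%, against 4.04%). DESeq2 called 5 of 45 in KO hearts (8.81% of all genes) and 3 of 45 in WT hearts (10.3% of all genes). In KO hearts this was Pak6, with 29.6 ± 3.86 CPM at E14.5 and 22.1 ± 0.542 CPM at E13.5 (0.43 ± 0.10, edgeR adjusted p = 0.0405). In WT hearts it was Ndufaf1, an assembly factor of respiratory complex I that starts 0.282 Mb from Ino80, with 27.2 ± 3.21 CPM at E14.5 and 21.2 ± 1.39 CPM at E13.5 (0.36 ± 0.09, adjusted p = 0.0390). The Ndufaf1 call ended with litter as a block (adjusted p = 0.0909), without litter 3 (0.138) and in a fit to the WT hearts alone (0.0738). Calls with stage in WT over all genes were 299, 95 and 587 in these fits, against 836 in the main fit. The Pak6 call ended in a fit to the KO hearts alone (0.0678) and with the Y-linked covariate (0.0546). Calls with stage in KO over all genes were 289 and 433 in these fits, against 774 in the main fit. The Pak6 and Ndufaf1 calls each ended in 7 of 12 fits that left out 1 library. For both of them these included the fits without E13.5 WT replicate 1 or 4 or without E13.5 KO replicate 3, 5 or 7. The Pak6 call also ended without WT replicate 8 or KO replicate 1 of E14.5, and the Ndufaf1 call without WT replicate 2 of E13.5 or WT replicate 7.2 of E14.5. Over all genes, the fits without the Pak6 call had 66 to 656 calls with stage in KO, against 774 in the main fit. Those without the Ndufaf1 call had 8 to 554 calls with stage in WT, against 836. Between KO and WT hearts Ndufaf1 did not pass the test (averaged 0.03 ± 0.06, adjusted p = 0.864).

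The share of genes called between KO and WT hearts changed with distance from Ino80. Averaged over the stages it was 15.8% of 76 genes that start within 2 Mb, 6.98% of 43 at 2 to 5 Mb, 5.26% of 95 at 5 to 10 Mb and 5.07% of 138 at 10 to 20 Mb. At 20 to 40 Mb it was 1.32% of 378, beyond 40 Mb 1.1% of 905, and on other chromosomes 1.36% of 17827. These are shares of genes, described with no test, since the window was proposed with results of these data known. In the comparison of E14.5 with E13.5 the genes within 2 Mb had 6.58% called in KO hearts, against 3.88% on other chromosomes, and 2.63% in WT hearts, against 4.1%. Without KO replicate 5 of E13.5 and KO replicate 2 of E14.5 together, 6.58% of the genes within 2 Mb were called between KO and WT hearts, against 0.274% on other chromosomes.

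**Figure D5:**
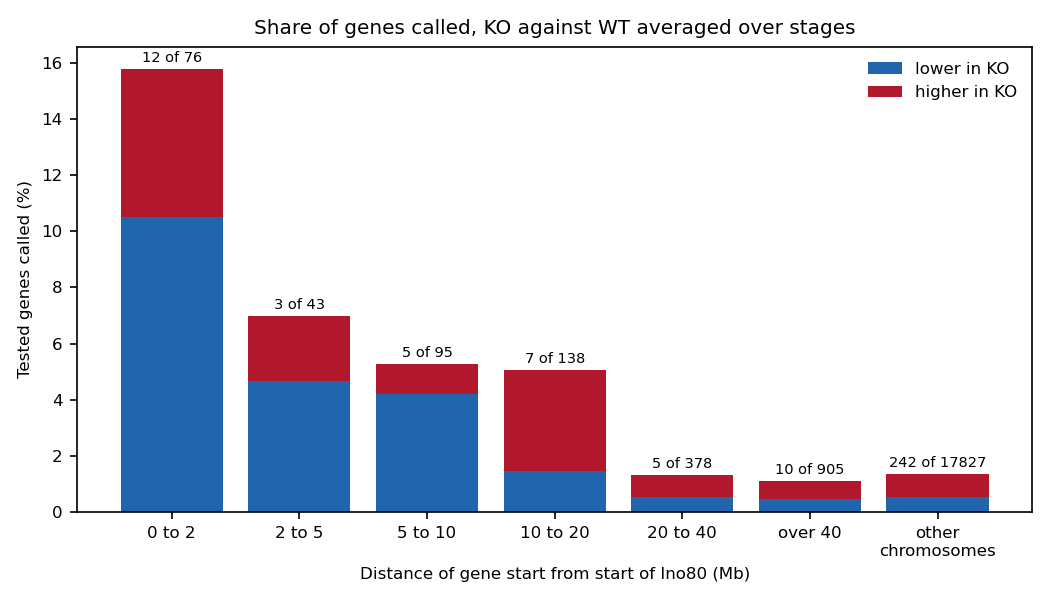
Percent of tested genes called between KO and WT hearts, averaged over the stages, by distance of their start from that of Ino80 on chromosome 2 in Mb, and on other chromosomes; blue is lower and red higher in KO, and the number called of those tested stands above each bar. The bar within 2 Mb reaches 15.8%, those from 2 to 20 Mb lie between 5.07% and 6.98%, and the rest between 1.1% and 1.36%.

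Within 2 Mb, the genes outside the list of 46 had 2 of 31 called, 6.45%. Among them was Ckmt1, a mitochondrial creatine kinase that starts 1.98 Mb above Ino80. Ckmt1 averaged 0.181 CPM in KO and 0.731 CPM in WT hearts over both stages (-2.26 ± 0.37, edgeR adjusted p = 0.01004). It was called at E13.5 (-3.28, adjusted p = 0.0455) and not at E14.5 (-1.24, adjusted p = 0.431). Farther out, Duox2, an oxidase that makes hydrogen peroxide, averaged 0.313 CPM in KO and 1.38 CPM in WT hearts (-2.12 ± 0.31, adjusted p = 0.00550) at 2.91 Mb. Duox2 too was called at E13.5 (-2.61, adjusted p = 0.0458) and not at E14.5 (-1.64, adjusted p = 0.179). Sord, the sorbitol dehydrogenase, averaged 52.5 CPM in KO and 71.7 CPM in WT hearts (-0.46 ± 0.07, adjusted p = 0.00559) at 2.86 Mb. Eif3j1, a subunit of the initiation factor eIF3, averaged 90.2 CPM in KO and 72.1 CPM in WT hearts (0.33 ± 0.06, adjusted p = 0.0116) at 2.66 Mb.

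Among the called genes within 20 Mb that are not on the list of 46, Tcp11l1 and Mcm8 had the smallest p values. Tcp11l1, 14.7 Mb below it, averaged 10.4 CPM in KO and 17.9 CPM in WT hearts (-0.78 ± 0.07, edgeR adjusted p = 0.000474) and was called at both stages. Mcm8, a helicase of recombination 13.4 Mb above Ino80, averaged 17.4 CPM in KO and 10.6 CPM in WT hearts (0.71 ± 0.10, adjusted p = 0.00465).

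Markers of endothelium, of blood-derived cells and of other cell types were read beside the neighbours. Of 12 endothelial markers 1 rose and 2 fell, and their summed level was 1208 to 1418 CPM in the KO hearts and 1108 to 1321 CPM in the WT hearts. Their averaged log2 fold changes were above 0 in 8 and below 0 in 4, with a median of 0.06. At E13.5 8 of 12 were below 0, with a median of -0.10. There 1 was called lower, and 1 higher and 2 lower had an unadjusted p below 0.05. At E14.5 10 of 12 were above 0, with a median of 0.21. There 0 were called, and 7 higher and 2 lower had an unadjusted p below 0.05. The interaction was above 0 in all 12, with 6 at an unadjusted p below 0.05 and 0 called. Pecam1, an adhesion molecule of endothelium, averaged 93.0 CPM in KO and 143 CPM in WT hearts at E13.5 and 124 CPM in KO and 155 CPM in WT hearts at E14.5 (-0.47 ± 0.05, edgeR adjusted p = 0.000785). Cldn5, of endothelial tight junctions, fell by 0.85 ± 0.12 (adjusted p = 0.00602), and Eng, a coreceptor for TGF-beta ligands, rose by 0.30 ± 0.06 (adjusted p = 0.0193), both on the log2 scale. All 16 macrophage and leukocyte markers had averaged log2 fold changes below 0, with a median of -0.90, and 0 passed the test (3 lower at an unadjusted p below 0.05, and 0 by DESeq2). By stage, 16 of 16 were below 0 at E13.5, with a median of -1.67 (0 called, 9 lower at an unadjusted p below 0.05, and 1 lower by DESeq2). At E14.5 12 of 16 were below 0, with a median of -0.13 (0 called, 0 at an unadjusted p below 0.05, and 0 by DESeq2), and the interaction with stage called 0 of the 16.

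Mast cell markers were lower in KO hearts in 2 of 6 tested, Cpa3 (-2.65 ± 0.27, edgeR adjusted p = 0.000519) and Cma1 (-1.70 ± 0.36, adjusted p = 0.0347), both granule proteases. Tpsb2, a mast cell tryptase, was called at E14.5 alone, where it averaged 0.0205 CPM in KO and 1.17 CPM in WT hearts (adjusted p = 0.0265). Mcpt4 (0.65, adjusted p = 0.550) and Gata2 (0.13, adjusted p = 0.399) had values above 0 and did not pass. Most of the summed level of the 8 mast cell markers was Gata2, with group means of 11.8 to 15.2 CPM. The sum was 15.4 to 16.8 CPM in KO and 15.5 to 17.0 CPM in WT hearts at E13.5. At E14.5 it was 12.6 to 15.9 CPM in KO and 16.9 to 21.9 CPM in WT hearts, without overlap. Tpsab1, Ms4a2 and Fcer1a averaged under 0.1 CPM. Lists of cardiomyocyte, megakaryocyte, erythroid, melanocyte, neural and Y-linked markers had 0 called. At an unadjusted p below 0.05 the megakaryocyte list had 1 higher and 1 lower, the melanocyte list 1 lower and the neural list 1 higher, and the other 3 lists had 0. DESeq2 called 1 neural marker, higher, and 0 in the other 5 lists. Of the 10 cardiomyocyte markers, 7 were below 0 at E13.5 (median -0.06), with 1 higher at an unadjusted p below 0.05. At E14.5 all 10 were below 0 (median -0.16), with 0 at an unadjusted p below 0.05. Their interaction was below 0 in all 10, with 0 called and 0 at an unadjusted p below 0.05. The part of any of these cells in the values of the neighbours was not tested.

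Leaving out the pair of KO hearts with the lowest macrophage markers, KO replicate 5 of E13.5 and KO replicate 2 of E14.5, kept 5 of the 10 averaged calls. Over all genes the same fit called 63 (0.297%), against 293 (1.42%) in the main fit. The neighbours kept were Capn3 (edgeR adjusted p = 0.0110), Gchfr (0.0103), Itpka (0.0237), Ltk (0.0183) and Ubr1 (0.0337). Disp2 (0.0563), Chp1 (0.104), Pak6 (0.0807), Pla2g4e (0.197) and Stard9 (0.164) did not pass in the 10 remaining hearts. Leaving out 1 library at a time, Capn3, Gchfr, Itpka, Ltk, Disp2 and Ubr1 passed in all 12 fits, and their adjusted p reached at most 0.0407, in Ubr1.

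Shared exons touch some of these values. Of the 46 neighbours, 15 share exon bases with a gene on the opposite strand, and the strand of counting is not stated in the sources used here. Gchfr, Itpka, Ltk, Disp2, Chp1 and Pak6 share no exon bases with another annotated gene. Capn3 shares bases with Ganc, Stard9 with Cdan1, Pla2g4e 153 bases with a noncoding transcript on its own strand and Ubr1 308 bases with a noncoding transcript on the opposite strand. Cdan1 and Ttbk2 share 3409 bases on the same strand, 29.8% of the exons of Cdan1 and 29.9% of those of Ttbk2, and their values, -0.14 ± 0.05 and -0.27 ± 0.09 on the log2 scale, are uncertain for that reason.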

How the data were processed

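RNA of 12 whole embryonic hearts was measured, 1 library per embryo. The authors deposited raw counts per gene symbol, with no normalization. Per the submitters' processing notes, STAR 2.5.3a, featureCounts, DESeq2, DESeq and the build GRCm38 were used, listed without role or order. The annotation, the strand setting and the treatment of reads that match several genes are not stated in the sources used here. Libraries held 46556032 to 182545647 counts, so that counting error matters mainly for genes under about 1 CPM (count scaled to library size).

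Groups followed the labels. From the counts, genes were filtered with filterByExpr on the 4 groups (20691 left), scaled by TMM and fitted in edgeR 4.0.16 (R 4.3.3) with a mean per group, robust quasi-likelihood dispersion and 8 residual degrees of freedom. The biological coefficient of variation was 17.1%. Two-sided F-tests set KO against WT averaged over the stages and within each stage, tested the difference of these effects, and set E14.5 against E13.5 within KO and within WT. Benjamini-Hochberg adjustment covered all tested genes, with a threshold of 0.05. SE is the absolute log2 fold change over the square root of F. The code was tested on simulated data.

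Positions and merged exon lengths came from GENCODE M21, matched by symbol for 94.1% of tested genes. Promoters came from RefSeq on GRCm38.p6, with 250 bases before each start, for 44 of 46 neighbours. The genes named were Ino80, all called neighbours, the 5 nearest on each side, the called genes of each pathway or marker list (up to 3) and the 6 other called genes within 20 Mb with the smallest p, leaving out predicted symbols. Per-embryo values of other genes are given by range. A called gene within 2 Mb of Ino80 is counted but not reported here. The neighbours, the lists and the alternatives were chosen with earlier results of these data known.

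The alternatives were RLE size factors, no low-count filter, DESeq2 1.42.0, a fit to the compared groups alone, a block for litter, a covariate for Y-linked expression, leaving out each library, litter 3, or the 2 KO hearts lowest in macrophage markers, and a distance between gene bodies. A fit without the robust option was added after seeing the data. Litters come from the labels. Residuals of KO and WT hearts at E14.5 had a mean correlation over genes of -0.00572 within litters (5 pairs) and 0.00721 between litters (4 pairs).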

Additional observations from a re-analysis of the deposited data

How the results depend on the processing

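No called neighbour reversed its direction under any alternative run, and RLE size factors changed no count of called neighbours. The averaged count of 10 was 8 to 12 under no filter, DESeq2, litter as a block, the Y-linked covariate, leaving out litter 3 and the fit without the robust option, and the block kept the same 10 genes. Without both KO hearts lowest in macrophage markers (KO replicate 5 of E13.5 and KO replicate 2 of E14.5) the counts were 5 averaged, 0 at E13.5, 0 at E14.5, 0 for stage in KO and 0 for stage in WT. Over all genes that fit called 63, 29, 10, 130 and 474. DESeq2 called 7 at E13.5, 9 at E14.5, 5 with stage in KO and 3 with stage in WT. The Y-linked covariate left 0 at E13.5 and 0 with stage in KO (9 and 433 over all genes). The fit to the compared groups alone left 0 at E14.5 and 0 with stage in KO and in WT (2, 289 and 587 over all genes). Litter as a replicate block gave 4 at E14.5 and 0 with stage in WT. Over all genes it called 398 averaged, 60 at E13.5, 92 at E14.5 and 299 with stage in WT, against 293, 22, 46 and 836. DESeq2 called 926, 310 and 348 of all genes, and 1822 and 2140 with stage in KO and in WT. Without the robust option 2 were called at E13.5, since Capn3 had an adjusted p of 0.0521. Leaving out litter 3 gave 0 at E14.5 and 0 with stage in WT (61 and 95 over all genes). Leaving out 1 library gave 6 to 10 averaged, 0 to 4 at E13.5, 0 to 5 at E14.5, 0 to 2 with stage in KO and 0 to 3 with stage in WT. Over all genes these fits called 125 to 483 averaged, 2 to 69 at E13.5 and 10 to 107 at E14.5. With stage they called 66 to 1076 genes in KO and 8 to 1081 in WT. The averaged count of neighbours was 6 without WT replicate 1 or 4 or KO replicate 3, 5 or 7 of E13.5, or WT replicate 7 of E14.5. Without WT replicate 7.2 of E14.5, 0 were called at E14.5, 2 with stage in KO and 0 with stage in WT. That fit called 10, 1076 and 22 of all genes. The interaction called 0 neighbours in every fit run. The share called within 2 Mb of Ino80 was 25% by DESeq2 (4.4% on other chromosomes) and 6.58% without both KO hearts lowest in macrophage markers (0.274%). Over fits without 1 library it was 9.21% to 17.1% (0.562% to 2.29%), and without WT replicate 7.2 of E14.5 10.5% (0.88%). The gap between gene bodies gave 14.6%. The cause of these changes was not tested. Ltk, Disp2, Chac1, Spint1 and Rhov rest on few counts, and the 3 embryos a group limit what small differences can pass.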
